A study of Mus musculus with 30 samples.

Results

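Complement transcripts were measured in the colon of mice, for the components C1qa, C1qb, C1qc, C1ra, C1s1, C3 and C4b and for the regulators Serping1 and Cd55. These 9 genes were taken by symbol and Ensembl ID out of the 46078 genes counted, and all were found. RNA-seq was performed on colon tissue of 30 C57BL/6J mice, 1 library per animal and 6 animals per group. CD F and CD M were females and males on a control diet (10% of energy from fat), and HFD F and HFD M were females and males on a high fat diet (60% of energy from fat), all given vehicle. HFD+E2 M were males on the high fat diet injected with 17β-estradiol (E2, 0.5 mg/kg body weight). The mice were 5 to 6 weeks old at the start, the females had intact ovaries, each diet lasted 13 weeks, and vehicle or E2 was given as 9 intraperitoneal injections over the last 3 weeks. No female received E2, and no E2-treated male was on CD. The tissue was not separated into cell types, so a lower value could reflect fewer cells of a type or less RNA per cell, and these cannot be told apart.

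Complement is a cascade of plasma and tissue proteins that marks microbes and dying cells for removal. In the classical pathway, C1q binds antibody or other ligands, the proteases C1r and C1s are activated on it and cleave C4 and C2, and the resulting convertase cleaves C3, where all pathways meet. C1 inhibitor, encoded by Serping1, inactivates C1r and C1s, and CD55, or decay accelerating factor, dissociates C3 convertases on the cell surface. The liver makes most plasma complement, but C1q is produced mainly by macrophages and related cells, and stromal and epithelial cells of the intestine make other components locally.

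The counts assigned to genes ranged from 8667177 to 17243712 per library, with a median of 11530915.5, and mitochondrial genes took 26.1% to 38.0% of them. Markers of colon epithelium were abundant in every group (summed medians per group of 5620 to 6188 TPM over 12 genes), whereas Cdx2, which encodes an intestinal transcription factor, was at 0 TPM in 10 libraries. Squamous epithelium markers (12 genes such as Krt5 and Krt13) set 6 libraries apart, 4 of HFD F and 2 of HFD M, with sums of 112 to 1348 TPM against 0.033 to 14.5 TPM in the other 24. Results that include these libraries are therefore also given without them where the call differs. Of HFD F only replicates 2 and 6 then remain, so such fits rest on few HFD females. A changed call in them may reflect the smaller group.

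All 9 genes were transcribed in every library. Each had at least 62 counts in each library and passed the filter on low counts in every comparison, so none is missing from the tests. Expressed per length as TPM and averaged over 30 libraries, the order was Serping1 with 59.5 ± 11.5, Cd55 with 50.6 ± 8.18, C3 with 36.9 ± 6.71, C1s1 with 27.5 ± 5.13, C1qa with 19.7 ± 6.05, C1qb with 18.3 ± 5.02, C1ra with 11.3 ± 2.15, C1qc with 11.2 ± 3.18 and C4b with 10.8 ± 2.69 (mean ± SD, n = 30). Both regulators thus stood above the components. The coefficient of variation between libraries was 16.2% for Cd55 at the low end and 30.8% for C1qa at the high end.

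**Figure D1:**
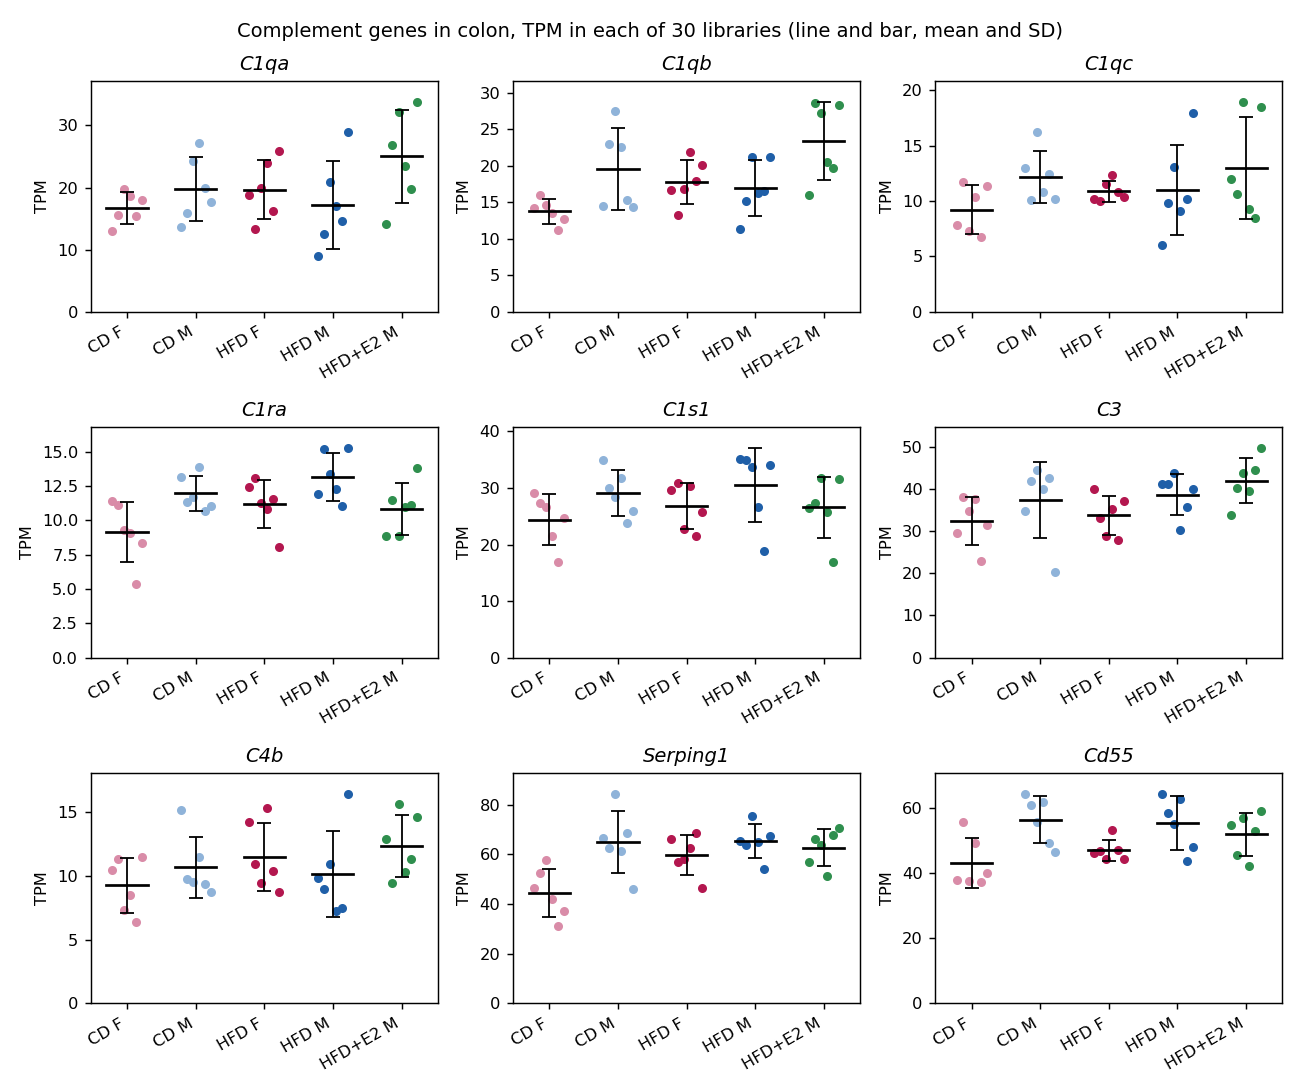
TPM (vertical axis, from 0) of the 9 complement genes in each library of the 5 groups, with 6 animals per group. Points are animals, the horizontal line is the mean and the bar the SD. The mean of CD F is the lowest of the 5 groups in all 9 panels, from 9.13 TPM for C1ra to 44.6 TPM for Serping1. On log2(TPM + 0.1) the median over all genes tested also shifted, by -0.11 in CD F against CD M and 0.088 in HFD F against CD F. On log2 CPM, CD F is not the lowest for C1qa and C3.

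C1qa, C1qb and C1qc encode the 3 chains of C1q and are neighbours on the minus strand of chromosome 4 in GRCm38, at chr4:136895917-136898803, chr4:136880129-136886187 and chr4:136889804-136893065. The ratio of C1qa to C1qb was 1.08 ± 0.20 in TPM, and that of C1qb to C1qc was 1.67 ± 0.38 (SD, n = 30). Each of the 3 chains varied by over 2.5-fold between its lowest and its highest library. The bases before the start of transcription are shown for C1qb and C1qc, whose transcripts varied together, and for C3, which varied with both. They are RefSeq promoters (GRCm38.p6), 250 bases each, 5′ to 3′ on the minus strand, at chr4:136886201-136886450, chr4:136892915-136893164 and chr17:57228137-57228386. The RefSeq start of C1qc lies inside the gene as the files give it, so 151 of its 250 bases fall within that gene, whereas that of C1qb lies 13 bases outside it. Capitals mark matches on either strand to GAGGAA (a PU.1-type ETS sequence), TTGCNNAA (C/EBP-type) or AGGTCA (a nuclear receptor half-site, also part of estrogen response elements).
C1qb: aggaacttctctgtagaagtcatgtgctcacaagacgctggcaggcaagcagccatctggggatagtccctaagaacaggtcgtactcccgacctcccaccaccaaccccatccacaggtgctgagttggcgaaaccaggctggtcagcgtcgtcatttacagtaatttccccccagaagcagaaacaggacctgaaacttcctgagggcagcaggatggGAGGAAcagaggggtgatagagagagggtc
C1qc: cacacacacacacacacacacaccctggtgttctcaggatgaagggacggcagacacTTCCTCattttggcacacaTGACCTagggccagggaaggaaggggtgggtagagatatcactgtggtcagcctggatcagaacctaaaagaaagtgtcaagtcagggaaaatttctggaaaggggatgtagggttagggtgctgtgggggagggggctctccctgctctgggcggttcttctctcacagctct
C3: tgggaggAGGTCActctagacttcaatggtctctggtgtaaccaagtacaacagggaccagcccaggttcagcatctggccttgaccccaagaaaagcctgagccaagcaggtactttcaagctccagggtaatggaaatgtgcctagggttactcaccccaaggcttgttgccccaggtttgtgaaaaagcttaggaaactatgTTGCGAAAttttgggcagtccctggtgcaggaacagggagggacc
GAGGAA occurred once upstream of C1qb and once upstream of C1qc, and 23.1% of 27025 promoters of this length hold it. AGGTCA occurred once in C1qc and once in C3 and in 13.8% of promoters, and TTGCNNAA once in C3 and in 9.55% of promoters. The marked matches do not overlap. Of the other 3 genes with an entry (C1ra, C1s1 and Cd55), C1s1 had 1 match to TTGCNNAA and none had another match, and TTCNNNGAA (STAT, 7.18% of promoters) had no match in any of the 6. These matches are descriptions of the letters. C1qa, C4b and Serping1 had no entry.

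C1ra and C1s1 encode the proteases of the C1 complex and lie on opposite strands of chromosome 6 (chr6:124512632-124523440 and chr6:124530345-124542359). C1s1 was 2.48 ± 0.45 times C1ra in TPM (SD, n = 30). C3 and C4b, the components cleaved next, lie on chromosome 17 (chr17:57203970-57228136 and chr17:34728380-34743882), and C3 was 3.55 ± 0.83 times C4b. Serping1 is at chr2:84765387-84775444 and Cd55 at chr1:130439027-130462744. Near-identical copies could take reads from 4 of these genes. C1rb had 4 counts in all libraries against 5144 for C1ra, C1s2 had 23 against 17784 for C1s1, C4a had 168 against 12054 for C4b, and Cd55b had 279 against 33872 for Cd55. In mean TPM, C4a had 1.34 against 10.8 for C4b, and Cd55b had 2.81 against 50.6 for Cd55. C1rb had 0.16 TPM and C1s2 0.19 TPM. How reads that match both copies were counted is not given in the sources used here, so a loss of such reads cannot be seen. The exons of C1s1 and Cd55 overlap antisense genes (Gm16567 and Gm16083), and the strand setting of the counting is not given in the sources used here, so reads of the partners may be included.

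The rest of the cascade was present unevenly. Of 44 other complement genes listed, Colec12, a scavenger receptor that binds microbial sugars (median 11.8 TPM), Cr1l, the Crry regulator of C3 convertases (45.7 TPM), and Clu, the fluid-phase regulator clusterin (19.2 TPM), were at the level of the 9 genes. Cfb, or factor B, had 80.3 TPM but at most 244 counts in a library, and its exons overlap those of Gm20547 on the same strand, so its level is uncertain. C2, which has the same overlap, had 1.94 TPM. The initiators of the lectin pathway Mbl1, Mbl2 and Fcnb and the terminal component C8b had 0 counts in all 30 libraries. The terminal components Hc (C5), C6, C8a and C9 had medians of 0 TPM, and no gene of the terminal list could be tested between CD F and CD M.

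**Figure D2:**
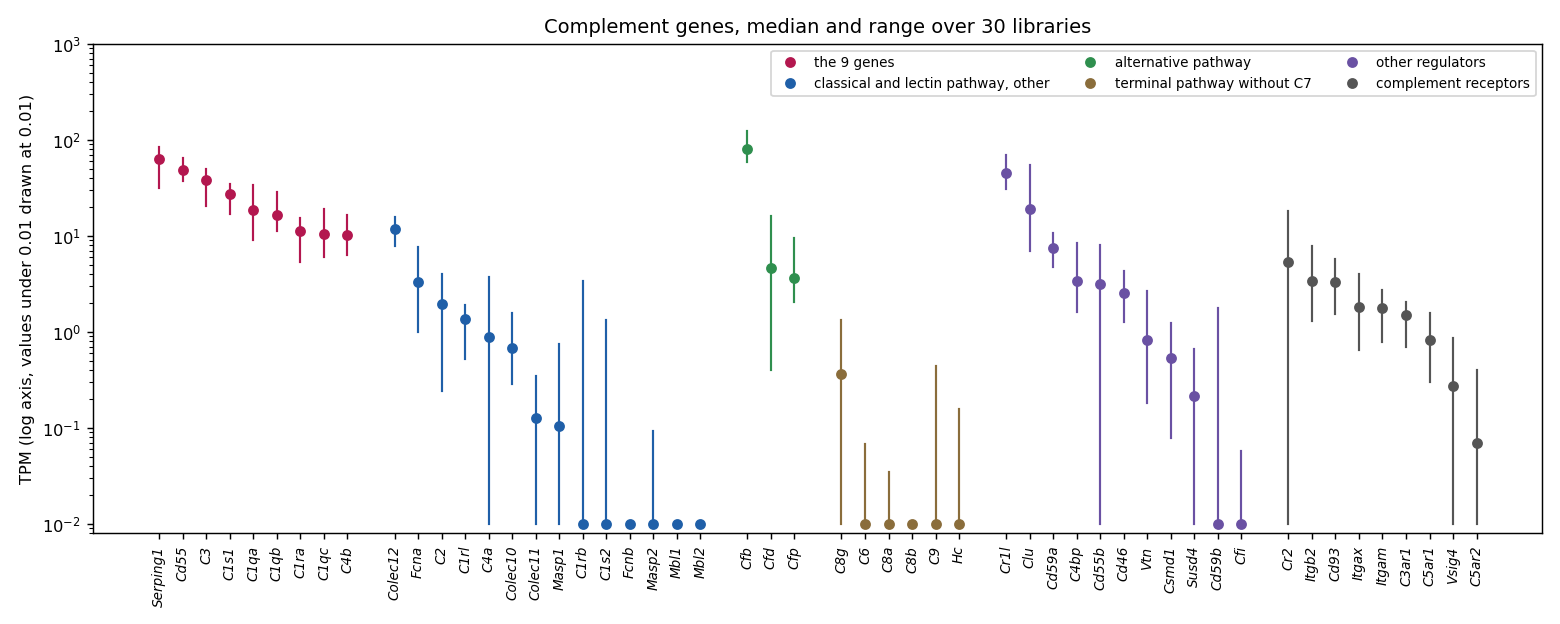
TPM on a log axis for 52 complement genes grouped by role, with the median over 30 libraries as a point and the lowest to highest library as a line. Values under 0.01 are drawn at 0.01. The 9 genes have medians of 10.3 to 62.6 TPM, whereas 5 of 6 genes of the terminal pathway have a median of 0.

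The first comparison asked how the sexes differed on CD. All 9 genes had lower estimates in CD F than in CD M, with a median log2 fold change of -0.26 against 0.01 over all genes tested. None passed an adjusted p of 0.05 with edgeR's quasi-likelihood test, which 2.92% of 14922 genes passed. The threshold of the study combined a p-value limit of 0.05 with a log2 change of more than 0.4. With this p-value read as unadjusted, Serping1 and C1qb met it in the lower direction, as did 6.21% of all genes. These 2 were also the members with an unadjusted p under 0.05 (14.8% of all genes), and with DESeq2 1 member, Serping1, passed the adjusted threshold.

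Serping1 ranged from 31.2 to 57.6 TPM in CD F (median 44.3) and from 46.1 to 84.5 TPM in CD M (median 64.6). The groups overlapped, since 1 male was at 46.1 TPM, below 3 females. The log2 fold change was -0.44 ± 0.12 (SE, 95% CI -0.70 to -0.19), with an edgeR adjusted p of 0.0584 and an exact permutation p of 0.0130 (two-sided, n = 6 per group). The adjusted p lies next to the threshold and depended on the setting, from 0.00902 to 0.147 over the alternatives, and was 0.0487 without CD M replicate 1, 0.0188 without CD M replicate 6 and 0.147 without CD M replicate 3. C1qb ranged from 11.2 to 16.1 TPM in CD F (median 13.9) and from 14.4 to 27.6 TPM in CD M (median 18.9). The 3 males at 22.6 TPM or more lay above all females, and the other males lay among them. Its log2 fold change was -0.41 ± 0.17 (SE), with an edgeR adjusted p of 0.245 and an exact permutation p of 0.104, and it no longer met the study's threshold in 5 of 12 fits that left out 1 library, namely CD F replicate 1 or 6 or CD M replicate 2, 3 or 4. Without CD M replicate 3 neither gene met it.

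C1qa, the partner chain, had a smaller difference of -0.12 ± 0.18 on the log2 scale, and its 95% CI of -0.51 to 0.27 leaves room for either direction. C1qc (-0.29 ± 0.16), C1ra (-0.26 ± 0.13), Cd55 (-0.26 ± 0.13), C1s1 (-0.13 ± 0.08), C4b (-0.12 ± 0.14) and C3 (-0.10 ± 0.16) did not pass either (SE, n = 6 per group, edgeR adjusted p of 0.357 to 0.840). Cd55 ranged from 37.2 to 55.5 TPM in CD F (median 38.9) and from 46.4 to 64.3 TPM in CD M (median 58.2). Of the 6 females, 4 lay below all males.

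Markers of stroma differed between these groups in the same direction. All 10 smooth muscle markers were lower in CD F (median log2 fold change -0.59) and 6 of them passed the adjusted threshold. Their summed level was 2640 to 4093 TPM in CD F and 4149 to 6888 TPM in CD M, without overlap. All 10 fibroblast markers, such as the collagen gene Col1a1, were lower as well (median -0.43), and 2 passed, with sums of 349 to 708 TPM in CD F and 629 to 1035 TPM in CD M. Of 13 macrophage markers tested, 7 were lower and none passed (median -0.05, sums of 114 to 202 TPM in CD F and 114 to 211 TPM in CD M). All 8 B cell markers were higher in CD F (median 1.31), and none passed. All 6 blood endothelium markers were lower (median -0.43), and 1 passed. Their part in the lower complement levels was not tested.

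Of 23 other complement genes tested on CD, none passed the adjusted threshold, 5 were higher and 7 lower by that of the study. Of all 14922 genes tested, 439 were higher and 927 lower by it. C4bp, a fluid-phase inhibitor of the classical pathway, was higher in CD F (0.81 ± 0.22, edgeR adjusted p = 0.0621) and Fcna, or ficolin A, was lower (-0.78 ± 0.24, adjusted p = 0.101; SE).

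**Figure D3:**
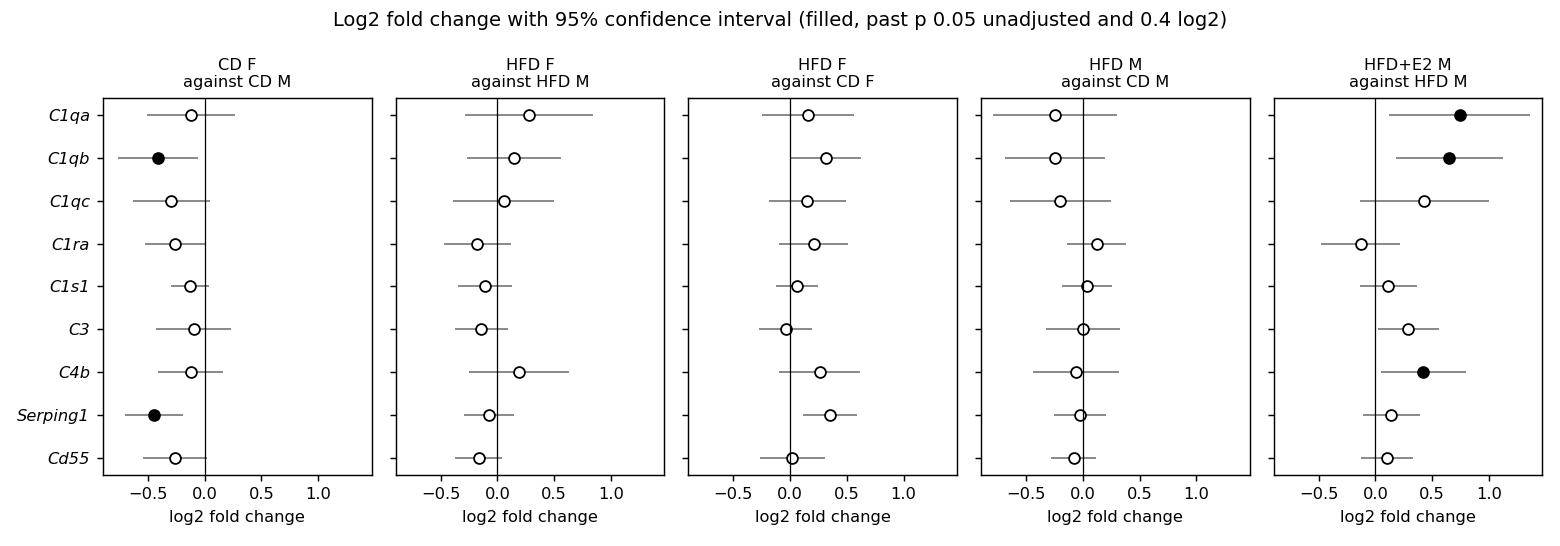
Log2 fold change (horizontal axis) of the 9 complement genes in the 5 comparisons of 6 animals with 6, from edgeR, with 95% confidence intervals as lines. Filled points meet the threshold of the study, with an unadjusted p-value. In the panel of CD F against CD M all 9 points lie below 0, and in that of HFD+E2 M against HFD M C1qa (0.74), C1qb (0.65) and C4b (0.42) are filled.

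On HFD, the estimates of the sex difference went in both directions. No member passed the adjusted threshold in HFD F against HFD M (0.0988% of 15179 genes did with edgeR) and none met that of the study (3.09% of genes), had an unadjusted p under 0.05 (5.09% of genes) or passed with DESeq2. Of the estimates, 4 were above and 5 below 0 (median -0.07, all genes 0.01). Serping1 ranged from 46.4 to 68.5 TPM in HFD F and from 54.3 to 75.6 TPM in HFD M, a log2 fold change of -0.07 ± 0.10 (SE, 95% CI -0.29 to 0.14). C1qb ranged from 13.3 to 21.9 TPM in HFD F and from 11.3 to 21.3 TPM in HFD M (0.14 ± 0.20). For both genes the groups lay across each other. Without the squamous-rich libraries Serping1 was at -0.30 ± 0.18 (SE), all members except C1qa and C1qb had estimates below 0, and none passed. The largest estimate was that of C1qa (0.28 ± 0.26), with a 95% CI of -0.28 to 0.84. Among the other 25 complement genes tested, Cfd, or factor D (adipsin), the protease of the alternative pathway that is abundant in fat tissue, was higher in HFD F at the threshold of the study (2.02 ± 0.61, edgeR adjusted p = 0.781). Cfd had few counts, 3 to 41 per library in HFD M and 26 to 143 in HFD F. The 6 adipocyte markers tested also had estimates above 0 (median 0.26), and their part was not tested. Itgam, which encodes a chain of complement receptor 3, had an estimate of 0.35 ± 0.16. It overlaps Gm49368 on the same strand, so its counts are uncertain here and in the later comparisons.

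Whether the sex difference depended on the diet was tested as an interaction over the 24 vehicle libraries. No member passed the adjusted threshold with edgeR or DESeq2, and 0.0% of 15800 genes did with edgeR. C1qb met the threshold of the study, with females minus males 0.55 ± 0.27 (SE) higher on HFD than on CD (edgeR adjusted p = 0.733), as did 3.71% of all genes in this direction. The call was kept in 8 of 24 fits without 1 library and was lost without the 6 squamous-rich libraries (0.42 on the log2 scale). Serping1 had an interaction of 0.37 ± 0.16, below the minimum of 0.4 (edgeR adjusted p = 0.694), and these 2 were the members with an unadjusted p under 0.05 (6.75% of genes). The estimate was 0.15 without the squamous-rich libraries. Of the other 26 complement genes, Itgam (0.76 ± 0.20, adjusted p = 0.397), C4bp (-1.12 ± 0.35, adjusted p = 0.584) and Susd4, an inhibitor of C3 convertases (1.07 ± 0.41, adjusted p = 0.655), met the threshold of the study with edgeR and none passed the adjusted threshold. All 10 smooth muscle markers (median 0.47) and all 10 fibroblast markers (median 0.23) also had interactions above 0, whereas all 8 B cell markers lay below 0 (median -1.20). The part of these cells was not tested.

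Over both diets together, 7 of 9 genes had lower estimates in females, and none passed the adjusted threshold with edgeR (1.80% of 15800 genes did) or DESeq2 or met that of the study (5.53% of genes). The unadjusted p was under 0.05 for 3 members (13.5% of all genes), Serping1 (-0.26 ± 0.09, adjusted p = 0.143), Cd55 (-0.21 ± 0.08, adjusted p = 0.222) and C1ra (-0.22 ± 0.09, adjusted p = 0.277, SE in edgeR). Without the squamous-rich libraries, Serping1 was lower in females by -0.40 ± 0.10 with an adjusted p of 0.0231, so this call depended on the libraries used. For HFD F that fit rested on replicates 2 and 6, so CD animals weighed more in it. Of the other complement genes, Fcna (-0.63 ± 0.19) and C5ar1, a receptor for the C5a fragment (-0.61 ± 0.20), were lower in females at the threshold of the study, with edgeR adjusted p-values of 0.0935 and 0.113. Of the smooth muscle markers 10 of 10 were lower in females (median -0.35) and 1 passed.

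The response to HFD was next compared within each sex. In females, 8 of 9 genes had higher estimates in HFD F than in CD F (median 0.16, all genes 0.00), and none passed the adjusted threshold with edgeR or DESeq2 (0.0199% of 15061 genes did with edgeR) or met that of the study (3.67% of genes). Serping1 was the only member with an unadjusted p under 0.05 (5.68% of genes). It ranged from 31.2 to 57.6 TPM in CD F and from 46.4 to 68.5 TPM in HFD F (median 60.3). Of the CD F animals, 4 lay below all HFD F animals and 2 lay among them. Its log2 fold change was 0.35 ± 0.11 (SE, 95% CI 0.11 to 0.59), with an adjusted p of 0.533 and an exact permutation p of 0.0195 (n = 6 per group). Without HFD F replicate 6 it was 0.41 and met the threshold of the study, and without the 4 squamous-rich libraries it was 0.14. C1qb followed with 0.31 ± 0.15 and an adjusted p of 0.888, and without HFD F replicate 2 it was 0.40 and met the threshold of the study. All 10 fibroblast markers (median 0.29) and all 10 smooth muscle markers (median 0.23) also had estimates above 0, none past the adjusted threshold, and their part was not tested. Of 22 other complement genes, Itgam met the threshold of the study (0.49 ± 0.15, adjusted p = 0.519), and Itgb2, the partner chain of Itgam (0.28 ± 0.15), and C4bp (-0.32 ± 0.21) did not.

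In males, 3 of 9 genes were above and 6 below 0 in HFD M against CD M (median -0.06, all genes -0.01). With edgeR, no member and 0.0% of 14991 genes passed the adjusted threshold, and no member had an unadjusted p under 0.05 (6.03% of genes), met the threshold of the study (2.90% of genes) or passed with DESeq2. The estimates ranged from -0.25 ± 0.26 for C1qa to 0.12 ± 0.12 for C1ra (SE, n = 6 per group). The intervals were narrowest for Cd55 (-0.28 to 0.12) and widest for C1qa (-0.79 to 0.30). C1qa had its lowest library of all in HFD M, at 8.98 TPM, and the highest HFD M library was at 29.0 TPM, above every CD M library. Serping1 medians were 64.6 TPM in CD M and 65.3 TPM in HFD M. C4bp was higher in HFD M (0.79 ± 0.26, adjusted p = 0.704) and Cfd lower (-1.49 ± 0.68, adjusted p = 0.823) at the threshold of the study, whereas Cr1l (0.21 ± 0.11) did not meet it. The Cfd results of HFD M against HFD F, CD M and HFD+E2 M share the HFD M group, with 3 to 41 counts per library, and are not independent. Over both sexes the diet estimates of the 9 genes lay between -0.05 for C1qa and 0.16 for Serping1 and C1ra. None passed the adjusted threshold with edgeR (0.418% of 15800 genes did) or DESeq2, none met that of the study (2.71% of genes), and none had an unadjusted p under 0.05 (5.90%). Of the other complement genes Masp1, a protease of the lectin pathway (0.90 ± 0.27, adjusted p = 0.226), and Cd55b (0.56 ± 0.23, adjusted p = 0.658) met the threshold of the study, with at most 19 counts in a library for each, and Susd4 did not (0.45 ± 0.22).

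The last comparison asked what E2 did in HFD males. In HFD+E2 M against HFD M, 8 of 9 genes had higher estimates (median 0.29, all genes 0.00), and those of C1q and C4b were the largest. No member passed the adjusted threshold with edgeR or DESeq2, and 0.00666% of 15010 genes did with edgeR. Of the 9 members, 4 had an unadjusted p under 0.05 (10.2% of all genes), and 3 of them, C1qa, C1qb and C4b, met the threshold of the study in the higher direction, which 2.63% of all genes did.

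C1qa ranged from 8.98 to 29.0 TPM in HFD M (median 15.9) and from 14.2 to 33.8 TPM in HFD+E2 M (median 25.2). The 2 treated animals, at 32.2 and 33.8 TPM, lay above all vehicle animals, and 1 treated animal lay below the median of vehicle. Its log2 fold change was 0.74 ± 0.29 (SE, 95% CI 0.12 to 1.36), with an edgeR adjusted p of 0.461 and an exact permutation p of 0.0563. C1qb ranged from 11.3 to 21.3 TPM in HFD M (median 16.4) and from 16.0 to 28.6 TPM in HFD+E2 M (median 23.8). The 3 treated animals, at 27.2 TPM or more, lay above all vehicle animals. Its log2 fold change was 0.65 ± 0.22 (SE, 95% CI 0.18 to 1.12), with an adjusted p of 0.455 and an exact permutation p of 0.0411 (two-sided, n = 6 per group). C1qc, the third chain, had 0.43 ± 0.27 and an adjusted p of 0.542, and did not meet either threshold.

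C4b ranged from 7.25 to 16.5 TPM in HFD M (median 9.41) and from 9.48 to 15.6 TPM in HFD+E2 M (median 12.1). The highest animal of all was a vehicle male, and 4 of the 6 treated animals lay above the other vehicle males. The log2 fold change was 0.42 ± 0.18 (SE), with an adjusted p of 0.470 and an exact permutation p of 0.0433. C3 ranged from 30.2 to 43.9 TPM in HFD M and from 33.9 to 49.8 TPM in HFD+E2 M. Its log2 fold change of 0.29 ± 0.13 was below the minimum of 0.4 (edgeR adjusted p = 0.476). Serping1 (0.14 ± 0.12), C1s1 (0.11 ± 0.12), Cd55 (0.10 ± 0.11) and C1ra (-0.13 ± 0.17) had intervals that include 0.

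C1qb met the threshold of the study in all 12 fits without 1 library, C1qa in 9 and C4b in 6. Without HFD+E2 M replicate 3, the deepest library, or replicate 6, only C1qb met it, and the same was found without the 2 squamous-rich HFD M libraries. C1qa was also lost without HFD+E2 M replicate 2. Its log2 fold change in these fits was 0.64 to 0.66, against 0.74 with all libraries. C4b was also lost without HFD M replicate 1, 2, 4 or 5. Without HFD M replicate 6, C1qc met the threshold as well (0.59). On log2(TPM + 1), where the median over all genes shifted by -0.12, the differences were 0.55 for C1qa, 0.44 for C1qb, 0.29 for C4b, 0.22 for C1qc and 0.11 for C3, whereas C1s1, Serping1 and Cd55 turned to -0.19, -0.06 and -0.09. Macrophage markers were above 0 for 10 of 13 genes (median 0.16, none past either threshold), with sums of 102 to 194 TPM in HFD M and 120 to 199 TPM in HFD+E2 M, and their part in the C1q values was not tested. Of the other 24 complement genes, Cfd (1.73 ± 0.47, adjusted p = 0.454), Cfb (0.50 ± 0.20, adjusted p = 0.461) and Itgam (0.48 ± 0.20, adjusted p = 0.461; edgeR) were higher by the threshold of the study.

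The 5 groups were then ordered by their mean TPM. CD F was lowest for all 9 genes, and HFD+E2 M was highest for C1qa, C1qb, C1qc, C3 and C4b. On log2 CPM, the scale of the tests of group pairs, the lowest mean was instead that of HFD M for C1qa and of HFD F for C3. On that scale HFD+E2 M was also highest for C1s1 (5.83, next HFD M at 5.70), Serping1 (6.32, next CD M at 6.20) and Cd55 (6.73, next CD M at 6.71). The highest mean TPM was 1.25 times (C1s1) to 1.70 times (C1qb) the lowest. Of 90 pairs of groups, 16 had an exact permutation p under 0.05 and none passed after adjustment over the 90, where the lowest adjusted p was 0.0974. This value was shared by Serping1 in CD F against HFD M and against HFD+E2 M, pairs that differ in more than 1 factor and did not overlap on the log2 CPM scale (exact permutation p = 0.00216, the smallest that 6 against 6 can give). For the 3 C1q genes, C1ra, C3 and C4b, no neighbours in the order differed beyond the spread between animals (exact permutation p of 0.0649 or more). Neighbours with an exact permutation p under 0.05 before adjustment were CD F and HFD F for Serping1 (0.0195), HFD F and HFD+E2 M for Cd55 (0.0411), and CD F and HFD+E2 M for C1s1 (0.0130). HFD+E2 M and HFD F, also neighbours for C1s1, were in the opposite order on log2 CPM (5.83 and 5.60, exact permutation p = 0.0390 before adjustment, n = 6 per group).

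The members were next related to each other between the animals of one group. After subtraction of the group means from log2 CPM, all 36 pairs of members had a correlation above 0 over the 30 libraries, and 10 had an adjusted p under 0.05 (permutation within groups, 100000 resamples), whereas the others did not pass. The share of all gene pairs that would pass was not computed, so these counts do not show that members are closer than other genes. The C1q chains were closest. C1qa and C1qb had Pearson's r = 0.84 and Spearman's rho = 0.79 (permutation p = 1e-05, the smallest that these resamples can give, and 2e-05, adjusted p = 0.00036 and 0.00072), and each was the gene most correlated with the other among 13713 genes. Without the 2 libraries farthest from the median of C1qa, r was 0.77. C1qc correlated with C1qa (r = 0.70, rho = 0.66, adjusted p = 0.00648 and 0.00672) and with C1qb (r = 0.66, rho = 0.65, adjusted p = 0.00792 and 0.00672). C3 correlated with Serping1 (r = 0.60, rho = 0.55, permutation p = 0.0175 and 0.0206 adjusted), although r was 0.43 without the 2 libraries farthest out, and with C1qb (r = 0.59, rho = 0.63, adjusted p = 0.0175 and 0.00864). C4b correlated with C1qc (r = 0.54) but had r = 0.19 with C1qb, and C1ra and C1s1, which encode partner proteases, had r = 0.42 and did not pass. Cd55 was in none of the 10 pairs. Other members were not among the closest genes in several cases, and C1s1 ranked 5062 for C1qa and Cd55 6884 for C4b among the 13713 genes. Members of pairs that passed were not always close either. C1qc ranked 164 for C1qa and 141 for C1qb, and Serping1 ranked 722 for C1qb, whereas Serping1 ranked 24 for C3.

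**Figure D4:**
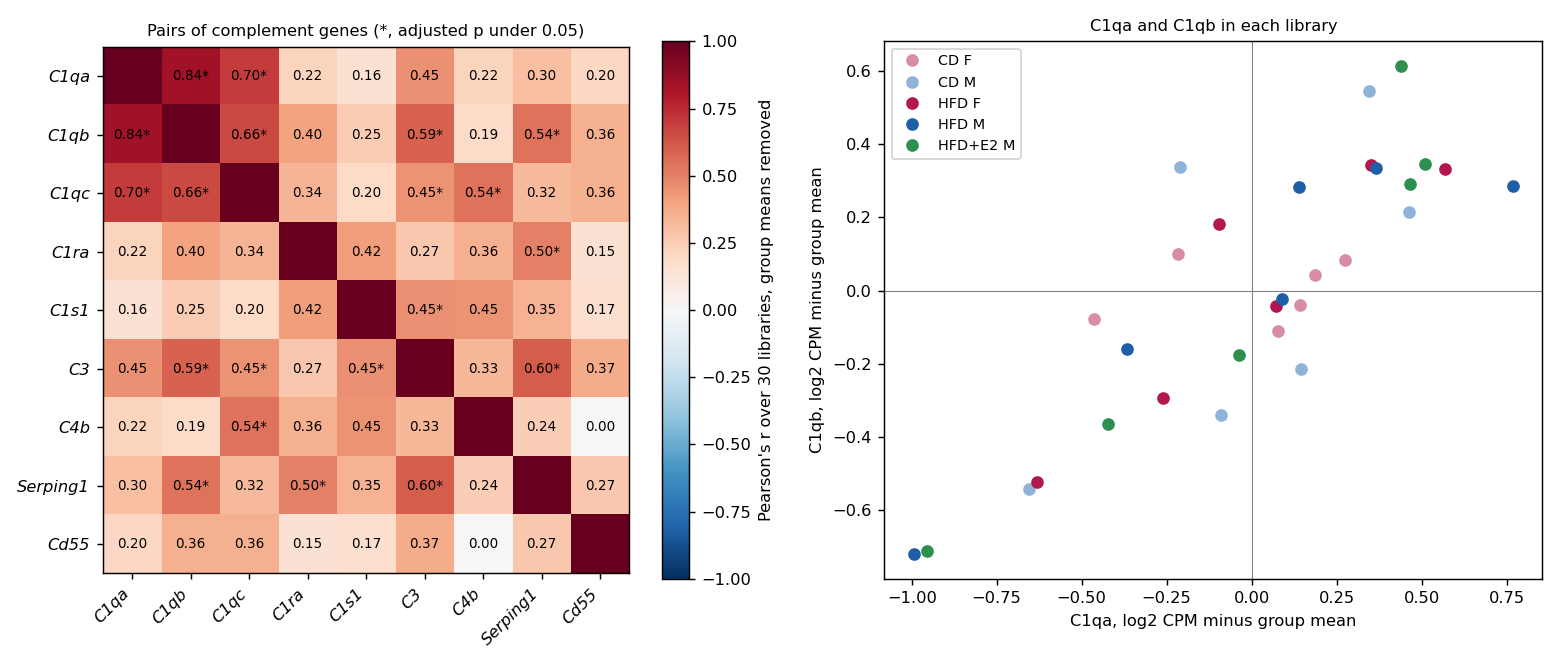
Left, Pearson's r between the 9 complement genes over 30 libraries after removal of group means (log2 CPM), with an asterisk for an adjusted p under 0.05. Right, C1qa and C1qb in each library as log2 CPM minus the group mean, with colours for groups, where the points of all 5 groups follow one rising band (r = 0.84).

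Marker scores of 8 cell types were related to the members in the same way, and 3 of 72 pairs passed. Serping1 followed the fibroblast markers (r = 0.63, rho = 0.66, adjusted p = 0.0223 and 0.0194, permutation within groups), and r was 0.61 without the 2 libraries farthest out. C4b followed the macrophage markers by r (0.61, adjusted p = 0.0223) and not by rho (0.58, adjusted p = 0.0598), and C1s1 followed blood endothelium by r (0.54, adjusted p = 0.0362) and not by rho (0.47, adjusted p = 0.0675). The C1q chains had r of 0.31 to 0.52 with the macrophage markers, and none passed. With the smooth muscle markers r was higher for C1qa (0.47, against 0.37 for macrophage markers) and C1qb (0.49, against 0.31). It was lower for C1qc (0.15, against 0.52), and none of these passed. Mesothelium markers could not be scored, and a liver score would have rested on 1 gene.

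The genes most similar to single members, by Pearson's r of group-centred log2 CPM over 30 libraries among 13705 genes with at least 1 TPM, were as follows. C1qb was closest to Ppdpf (r = 0.81) and Lgmn, a lysosomal protease (0.78). C4b was closest to Csf1r, the receptor for macrophage colony stimulating factor (0.77), Tgfbi (0.75) and Stab1, a scavenger receptor (0.72). Serping1 was closest to Lrrn4cl (0.82), Dcn, the matrix proteoglycan decorin and one of the fibroblast markers (0.79), and Tuba1a (0.74). C3 was closest to Efemp1, a matrix protein (0.77), Cadm3 (0.76) and Fgf7, a fibroblast growth factor (0.69). C1s1 was closest to Cp, or ceruloplasmin (0.79), Lepr, the leptin receptor (0.72), and Col12a1, a collagen (0.71). Cd55 was closest to Pon2 (0.73), RP24-230J14.2 (0.71) and Slc4a4, a bicarbonate transporter (0.68).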

How the data were processed

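RNA was taken from frozen distal colon, 1 library per mouse, and sequenced after ribosomal RNA depletion. Per the labels and the study's methods, the authors trimmed the reads with Trim Galore, mapped them to mm10 (GRCm38) with STAR and deposited raw read counts per gene from featureCounts. The authors also deposited TPM values from StringTie. Tool versions are not given in the sources used here except for bcl2fastq 2.19.1.403. Groups were taken from the titles of the libraries.

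Counts were tested with edgeR 4.0.16 in R 4.3.3 (filterByExpr, TMM, robust quasi-likelihood F-test), with Benjamini-Hochberg adjustment over all genes tested, and with DESeq2 1.42.0 as an alternative. The fits were tested on simulated data. For each gene named with an exact p, log2 CPM (prior count 2) was permuted over all splits of the 12 animals, two-sided. Correlations used log2 CPM minus the group mean. Alternatives were no fold minimum, a replicate block, a joint fit of all 30 libraries, DESeq2 size factors, dropping the low-count filter or raising it to 10 counts per library, log2 TPM with 0.1 or 1 added, and each library left out. Leaving out the libraries with over 100 TPM of squamous markers was chosen after seeing the data. Totals of 8667177 to 17243712 counts per library set the precision, and the reads carry no molecular identifiers.

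The 9 genes and the lists were chosen with earlier results of these data known. All 9 are named, and of the other complement genes those past the adjusted threshold or otherwise the 3 with the lowest p per comparison. The most similar genes are the 3 with the highest r for C1qb, C1s1, C3, C4b, Serping1 and Cd55. Other genes described by level were chosen after their values were seen. Results of 2 genes that these rules name are not reported here.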

Additional observations from a re-analysis of the deposited data

Results flagged for a closer look

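Cd55 in HFD F replicate 4 was at 53.1 TPM, and the next animal of the group was at 47.2 TPM, a gap of 0.663 of the range of the group in TPM. On log2 CPM it was not the highest of its group, since replicate 5 lay above it. It was the 1 case of a sample far from the others among 45 combinations of gene and group, and chance gives about 1 in 20.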

How the results depend on the processing

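Of 585 recalculated log2 fold changes of the members, 558 kept their direction and side of the adjusted threshold, 5 passed the threshold, all of them Serping1, and 22 turned in direction. With each library left out, 1138 of 1188 kept both, 2 passed and 48 turned. Between CD F and CD M, 1 member (Serping1) passed the adjusted threshold without the filter on low counts, with the replicate block, with DESeq2 and with all 30 libraries in one fit, and 1 met the threshold of the study with the block and with all 30 libraries. The titles give replicate numbers but do not say whether these pair the animals. Same-numbered libraries correlated over 0.1 in 16 of 30 pairs (from -0.54 to 0.63) and in no comparison in all 6. These values do not settle whether same-numbered animals share a structure. The block changed no other member's adjusted call. With it the SE of the E2 estimate was 0.16 in place of 0.29 for C1qa and 0.12 in place of 0.18 for C4b. For Cd55 it was 0.12 in place of 0.11. The block raised the genes past the adjusted threshold between CD F and CD M from 435 to 941. With it C1qc also met the threshold of the study for E2 (0.41), which made 4 members. Without a fold minimum 1 member met the threshold of the study between HFD F and CD F, 2 in the interaction and 3 for sex over both diets. The interaction had 0 members at that threshold with the size factors of DESeq2, with DESeq2, with all 30 libraries and without the squamous-rich libraries. Without those libraries, 1 member met it for E2 and 1 passed the adjusted threshold for sex over both diets. With log2(TPM + 0.1), 9 pairs of a member and a marker list passed in place of 3. The causes were not tested.

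These estimates turned in direction. Without the squamous-rich libraries these were C1qc (-0.15) and C4b (-0.14, from 0.19) in HFD F against HFD M, C3 (0.046) and Cd55 (-0.037) in HFD F against CD F, C4b (0.080) in HFD M against CD M and C4b (-0.010, from 0.31) in the interaction. For diet over both sexes they were C1qb (-0.020) and C3 (0.056), and for sex over both diets C1qa (-0.015) and C4b (-0.13). With log2(TPM + 0.1) and log2(TPM + 1), C3 in HFD F against CD F was 0.065 and 0.063, Serping1 in HFD M against CD M 0.022 and 0.021, and with E2 C1s1 was -0.196 and -0.190, Serping1 -0.058 and -0.057 and Cd55 -0.089 and -0.088. C3 in HFD M against CD M was -0.011 without the filter and -0.0048 with at least 10 counts.

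With each library left out, the members past the adjusted threshold between CD F and CD M numbered 0 to 1, and those at the threshold of the study 0 to 2. They numbered 0 to 1 between HFD F and CD F, 1 to 4 with E2 and 0 to 2 in the interaction. In HFD F against HFD M, C1qc ranged from -0.086 to 0.20. In HFD F against CD F, C3 ranged from -0.096 to 0.027 and Cd55 from -0.063 to 0.098. In HFD M against CD M, C1s1 ranged from -0.018 to 0.089, C3 from -0.12 to 0.070, C4b from -0.27 to 0.030 and Serping1 from -0.099 to 0.058. In the interaction, C1s1 ranged from -0.034 to 0.075 and C3 from -0.12 to 0.067. For diet over both sexes, C1qa ranged from -0.12 to 0.033, C1qb from -0.020 to 0.10, C1qc from -0.088 to 0.047, C3 from -0.077 to 0.014 and Cd55 from -0.074 to 0.0028. For sex over both diets, C1qa ranged from -0.0042 to 0.15 and C4b from -0.036 to 0.12.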
